A study of Mus musculus with 3186 samples.

Results

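The carriers for sugars, monocarboxylates, organic ions and vitamins were described across the cells of the mouse brain vasculature. Members were all genes of the count tables whose symbol places them in the solute carrier families Slc2, Slc5, Slc13, Slc15, Slc16, Slc19, Slc22, Slc23, Slc28, Slc29, Slc46, Slc47 or Slc52, or among the Slco genes. This gave 109 of the 19937 genes in 14 families, from 24 genes of the Slc22 family to 2 each of the Slc47 and Slc52 families. By their symbols 3 of the members are no carrier genes (the pseudogenes Slc2a4rg-ps and Slc22a13b-ps and the antisense gene Slc13a2os).

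The brains came from C57BL/6 mice, adults of 12 to 15 weeks, and each sorted cell gave 1 SMART-seq2 library, in which whole transcripts are copied and sequenced. The 3186 cells came from 3 reporter lines. In the Cldn5(BAC)eGFP line (1445 cells, plates EC3 to EC6) a bacterial artificial chromosome with the promoter of a tight junction gene labels endothelium. In the Pdgfrb(BAC)eGFP, NG2dsRed line (1484 cells, plates Mural3 to Mural6) the overlap of both reporters labels mural cells, since either reporter alone also labels other cells. In the Pdgfra-H2BGFP line (257 cells, plates Pdgfra1 and Pdgfra2) the reporter labels perivascular cells and also the oligodendrocyte lineage. The labels name no treatment. The labels name no animals, so each line was 1 sample: no p-value or standard error was computed, and plates, which may share animals, gave a range. Intervals are exact at 95% (Poisson for levels, Clopper-Pearson for shares of cells) and cover counting error only, because reads without molecular tags are not independent molecules.

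Cells were clustered without any solute carrier gene and named from marker genes. The 7 classes described were arterial-like (216 cells), capillary-like (714) and venous-like (311) endothelium, together called endothelial-like (1241), and pericyte-like (1093), smooth muscle-like (163), fibroblast-like (88) and oligodendrocyte-like (150) cells. Capillary-like and pericyte-like cells were 2 clusters each. A further 412 cells lay in an endothelial cluster led by globin genes, Nos2 and Alas2 and in a mural cluster, and both stayed unnamed. Reads per cell ran from 99905 to 1606954, with a median of 350339 (345991, 340344 and 533187 in the Cldn5, Pdgfrb/NG2 and Pdgfra lines). Wells were not free of other cells' RNA. The 12 endothelial markers stood in pericyte-like cells at a median of 1.57% of their endothelial-like level (0.316% for Clec14a to 53.7% for Esam), at 0.0598% in smooth muscle-like, 1.66% in fibroblast-like and 0.282% in oligodendrocyte-like cells. The 10 pericyte markers stood at a median of 8.63% of their pericyte-like level in fibroblast-like cells (0.641% to 31.7%).

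Solute carriers move small molecules across membranes that lipids alone would close. At the blood-brain barrier, tight junctions seal the path between endothelial cells, so glucose, lactate, ketone bodies, thyroid hormone and vitamins enter the brain through carriers in the endothelial membranes, while organic anion carriers and efflux pumps move drugs and metabolites. Pericytes lie on the capillary wall within the basement membrane, smooth muscle surrounds arteries and veins, and fibroblasts lie around larger vessels and in the meninges, where a separate barrier is formed.

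The promoters of 7 genes that the results turn on are shown because these genes had their highest levels in different classes: Slc2a1 (the glucose carrier GLUT1), Slc16a1 (the lactate and ketone body carrier MCT1), Slco1a4 and Slco1c1 (organic anion and thyroxine carriers) in endothelium, Slc19a1 (the reduced folate carrier) in pericytes, and Slc22a6 (the organic anion carrier OAT1) and Slc13a4 (a sulfate carrier) in fibroblasts. Each is the 5′ to 3′ sequence before the RefSeq start of the gene in GRCm38.p6 (mm10), shortened where an annotated exon begins. Slc19a1 had 2 RefSeq starts, and the window of the one shown lies inside the gene in the GENCODE annotation, which begins at 77032241. In 2 of the 7 genes, Slc2a1 and Slc13a4, the 50 bases after the RefSeq start lay in a GENCODE transcript. Capitals mark matches, on either strand, to GGGCGG (GC box), ACAAAG or TCAAAG (TCF/LEF core), AGGAAG (ETS core) and the CCAAT box, spelled as its name.
Slc2a1, chr4:119108495-119108710, plus strand: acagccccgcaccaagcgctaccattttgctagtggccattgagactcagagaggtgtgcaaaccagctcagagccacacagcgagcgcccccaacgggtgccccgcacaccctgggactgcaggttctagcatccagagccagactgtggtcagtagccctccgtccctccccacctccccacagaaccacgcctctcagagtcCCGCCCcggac
Slc16a1, chr3:104638414-104638663, plus strand: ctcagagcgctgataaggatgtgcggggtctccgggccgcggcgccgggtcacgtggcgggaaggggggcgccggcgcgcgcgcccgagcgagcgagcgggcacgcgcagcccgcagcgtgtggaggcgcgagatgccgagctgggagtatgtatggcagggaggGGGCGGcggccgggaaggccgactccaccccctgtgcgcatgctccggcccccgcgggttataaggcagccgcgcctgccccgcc
Slco1a4, chr6:141856221-141856470, minus strand: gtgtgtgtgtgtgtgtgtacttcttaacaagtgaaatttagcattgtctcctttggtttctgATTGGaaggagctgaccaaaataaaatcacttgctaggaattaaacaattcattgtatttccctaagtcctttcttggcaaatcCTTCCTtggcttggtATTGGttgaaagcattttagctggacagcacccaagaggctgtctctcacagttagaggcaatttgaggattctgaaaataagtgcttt
Slco1c1, chr6:141524104-141524353, plus strand: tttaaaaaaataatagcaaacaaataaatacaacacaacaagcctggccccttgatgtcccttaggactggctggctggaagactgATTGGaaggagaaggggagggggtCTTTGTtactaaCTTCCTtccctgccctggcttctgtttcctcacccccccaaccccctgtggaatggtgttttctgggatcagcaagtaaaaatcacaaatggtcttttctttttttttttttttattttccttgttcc
Slc19a1, chr10:77032489-77032683, plus strand: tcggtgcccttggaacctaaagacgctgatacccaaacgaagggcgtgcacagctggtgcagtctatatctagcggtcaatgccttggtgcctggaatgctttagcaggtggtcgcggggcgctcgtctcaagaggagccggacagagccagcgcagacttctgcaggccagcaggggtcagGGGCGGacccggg
Slc22a6, chr19:8617746-8617995, plus strand: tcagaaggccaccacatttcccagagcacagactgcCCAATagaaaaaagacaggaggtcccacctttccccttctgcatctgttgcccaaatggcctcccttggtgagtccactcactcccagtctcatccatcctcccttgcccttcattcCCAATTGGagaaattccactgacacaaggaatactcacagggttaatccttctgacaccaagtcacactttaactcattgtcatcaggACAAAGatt
Slc13a4, chr6:35308132-35308376, minus strand: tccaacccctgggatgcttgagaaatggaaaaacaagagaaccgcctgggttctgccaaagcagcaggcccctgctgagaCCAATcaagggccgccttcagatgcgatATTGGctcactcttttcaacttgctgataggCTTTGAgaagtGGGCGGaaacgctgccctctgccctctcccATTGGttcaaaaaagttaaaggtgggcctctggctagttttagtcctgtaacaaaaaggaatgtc

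The GC box stood once in Slc2a1 (first base at -45 from the start), Slc16a1 (-85), Slc19a1 (-68) and Slc13a4 (-100), and in none of the other 3 windows. A TCF/LEF core stood in Slco1c1 (-140), Slc22a6 (-9) and Slc13a4 (-111), and an ETS core in Slco1a4 (-104) and Slco1c1 (-128). Slco1a4 held 2 CCAAT boxes, Slco1c1 held 1, and Slc22a6 and Slc13a4 held 3 each, those of Slc22a6 at -97 and -94 sharing bases. In the table of promoters 86 of the 109 members were found. Of all 27025 promoters, 32.9% held the GC box within 250 bases before the start, 27.7% a TCF/LEF core, 29.2% an ETS core and 34.5% a CCAAT box. Among the 48 members with a promoter and at least 5 CPM in a class (CPM, reads of a gene scaled by all reads of the class), the shares were 58.3%, 29.2%, 31.3% and 35.4%, and their median GC content was 61%, against 52% over all promoters. A match is a description of the letters, not a binding site.

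Levels are pooled CPM over all cells of a class. Genes are set beside each other only per kilobase of exon. All 109 members had a read in some cell. Of these, 36 stayed below 1 CPM in each of the 7 classes and 11 reached between 1 and 5 CPM. At least 5 CPM in a class was reached by 62 members, at least 100 CPM by 27. The 6 most read (Slc2a1, Slco1a4, Slco1c1, Slc22a8, Slc16a1 and Slc19a1) are described in full. Those below 1 CPM included the intestinal and renal sodium-glucose carriers Slc5a1 and Slc5a2 and the choline carrier of cholinergic neurons, Slc5a7. Of the 62 members of at least 5 CPM, the highest level lay in fibroblast-like cells for 21, capillary-like for 11, pericyte-like for 9, oligodendrocyte-like for 7, smooth muscle-like for 6, and arterial-like and venous-like for 4 each. In 26 of them the highest class was at least 2-fold above the next. The same counts over all genes are not given here.

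**Figure D1:**
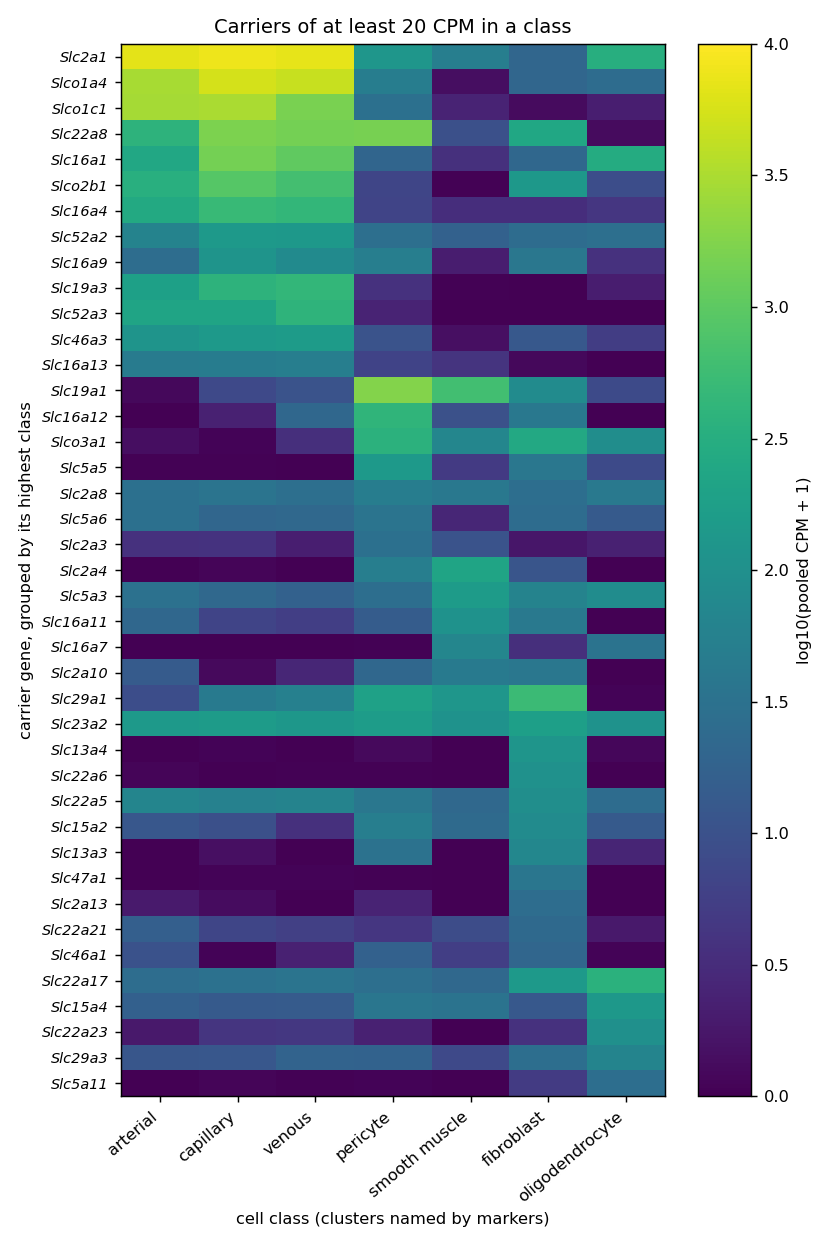
Pooled level of carriers that reached at least 20 CPM in a class, as log10(CPM + 1) by colour, in the 7 cell classes (columns), with genes (rows) grouped by their highest class. The brightest rows in the endothelial columns are Slc2a1, Slco1a4 and Slco1c1, and Slc19a1 is brightest in pericyte-like cells.

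The carriers' summed level was highest in endothelium. Summed per kilobase of exon, the members reached 5232 CPM per kb in capillary-like, 4484 in venous-like and 3738 in arterial-like cells, against 1246 in pericyte-like, 641 in fibroblast-like, 421 in smooth muscle-like and 389 in oligodendrocyte-like cells. Slc2a1 alone made up 42.7% of this sum in capillary-like, 44.9% in venous-like and 53.1% in arterial-like cells. The leading carrier was Slc19a1 in pericyte-like (31.4%) and smooth muscle-like cells (31.2%), Slc29a1, a nucleoside carrier, in fibroblast-like cells (20.8%), and Slc2a1 again in oligodendrocyte-like cells (23.5%). The fibroblast-like leader held in the pooled cells but not on plate Pdgfra2. There Slc13a4 and Slc22a6 lay above Slc29a1 per kilobase of exon. The 5 leading carriers made up 84.5% of the sum in capillary-like cells and 45.1% in fibroblast-like cells. The pooled carrier RNA of the fibroblast-like class was thus spread over more genes. Whether this holds within single cells was not tested.

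Sugar carriers differed by cell class in which gene was used. Slc2a1, which carries glucose across the barrier, stood at 6964 CPM in arterial-like (exact interval 6946 to 6983), 7835 in capillary-like (7824 to 7846) and 7063 in venous-like cells (7047 to 7079). On plates EC3, EC4, EC5 and EC6 its capillary-like level was 7761, 7885, 8297 and 7574 CPM, and its arterial-like level was 6879, 7919, 6788 and 6650 CPM. The zones overlapped on these plates. Slc2a1 stood at 124 CPM in pericyte-like, 50.8 in smooth muscle-like, 20.1 in fibroblast-like and 320 in oligodendrocyte-like cells. Its pericyte-like level was 1.66% of the endothelial-like level, close to the median of the endothelial markers there. Its oligodendrocyte-like level was 4.27%, above each of the 12 endothelial markers, of which the highest stood at 0.773%. Exons of Slc2a1 overlap an antisense gene, Gm12868, and whether counting used strand is not given in the sources used here.

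Slc2a4, the insulin-responsive glucose carrier GLUT4, was a smooth muscle gene. It stood at 206, 223, 132 and 308 CPM in smooth muscle-like cells on plates Mural3 to Mural6 and at 62.8, 53.3, 47.1 and 39.0 CPM in pericyte-like cells of the same plates. The smooth muscle-like value was the higher on each plate. Slc2a4 was read in 51.5% of smooth muscle-like cells (43.6 to 59.4) and 14.3% of pericyte-like cells (12.3 to 16.5), or 49.1% and 11.4% after each cell was thinned to 100000 reads. In endothelial-like cells it had 39 reads in all, 0.089 CPM. Slc2a10, a hexose carrier, stood at 41.6 CPM in smooth muscle-like and 37.9 in fibroblast-like cells. Slc2a3, the glucose carrier of neurons, stayed at 29.4 CPM or less, its pericyte-like level, and was read in 7.14% of those cells. Slc2a8, an intracellular hexose carrier, varied little, from 26.7 CPM in fibroblast-like to 47.7 in pericyte-like cells.

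The carriers for myo-inositol, an osmolyte, had their highest levels outside endothelium. Slc5a3 stood at 154 CPM in smooth muscle-like cells (165, 159, 123 and 170.5 on Mural3 to Mural6), 85.9 in oligodendrocyte-like and 61.2 in fibroblast-like cells, and between 16.3 and 30.0 in the endothelial zones and pericyte-like cells. Its exons overlap Mrps6 on the same strand, so its reads cannot be told apart from that gene's where they share sequence. Slc2a13 reached 26.2 CPM in fibroblast-like cells and Slc5a11 27.4 CPM in oligodendrocyte-like cells.

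Monocarboxylate carriers were divided by class as well. Slc16a1 stood at 1438 CPM in capillary-like (1433 to 1442), 1071 in venous-like (1065 to 1078) and 252 in arterial-like cells (249 to 256). By plate its capillary-like level was 1037, 1084, 1882 and 1816 CPM on EC3 to EC6, and its arterial-like level was 190, 293, 202 and 285 CPM. Each capillary-like value lay above every arterial-like value. Slc16a1 also stood at 283 CPM in oligodendrocyte-like cells (294 and 277 on Pdgfra1 and Pdgfra2) and was read in 78.0% of them (70.5 to 84.3), against 5.95% of pericyte-like cells (70.7% and 3.21% after thinning). The oligodendrocyte-like level was 24.9% of the endothelial-like one. Oligodendrocyte MCT1 is known for passing lactate to axons. Slc16a7, the related lactate and pyruvate carrier MCT2, was instead highest in smooth muscle-like cells at 66.8 CPM and stood at 32.9 in oligodendrocyte-like cells. It had 22 reads in all pericyte-like cells, 0.061 CPM. Slc16a3, the lactate exporter MCT4 of glycolytic cells, stayed at 7.33 CPM or less. Slc16a11, a pyruvate carrier, stood at 110 CPM in smooth muscle-like, 40.4 in fibroblast-like and 13.8 in pericyte-like cells.

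Slc16a12, a creatine carrier, was a pericyte gene. It stood at 469, 470, 363 and 359 CPM on Mural3 to Mural6 and was read in 67.2% of pericyte-like cells (64.4 to 70.0). It reached 8.89 CPM in smooth muscle-like and 39.2 CPM in fibroblast-like cells. In endothelium it had 0 reads in arterial-like cells, 1.33 CPM in capillary-like cells and 20.8 CPM in venous-like cells, where the plates gave 16.5, 25.2, 18.7 and 17.1 CPM. The venous-like level was 5.05% of the pericyte-like one, while the 10 pericyte markers stood in venous-like cells at 0.357% to 0.878% of theirs. Slc16a9, a carnitine carrier, stood at 116 CPM in capillary-like, 80.5 in venous-like, 51.3 in pericyte-like and 25.6 in arterial-like cells. Slc16a4, a less studied member, stood at 272, 502 and 445 CPM in arterial-like, capillary-like and venous-like cells and at 5.68 CPM or less elsewhere.

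Slco1c1, the thyroxine carrier OATP1C1, was read throughout the endothelial zones and stood at 2878 CPM in arterial-like (2866 to 2890), 3097 in capillary-like (3090 to 3104) and 1549 in venous-like cells (1542 to 1557). Its venous-like plates (1506, 1510, 1763 and 1174 CPM on EC3 to EC6) all lay below its capillary-like plates (2827, 3061, 3157 and 3282 CPM). In pericyte-like cells Slco1c1 stood at 28.6 CPM, which is 1.07% of its endothelial-like level, and it stood at 1.47 CPM or less in smooth muscle-like, fibroblast-like and oligodendrocyte-like cells.

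Organic anion carriers were read in endothelium, pericytes and fibroblasts, some in one of these and some in several. Slco1a4, a carrier of bile acids, steroid conjugates and drugs, stood at 3018 CPM in arterial-like, 5444 in capillary-like and 4622 in venous-like cells. Its plates ran from 2676 to 3386 in arterial-like and from 4714 to 7306 in capillary-like cells, with no overlap. Slco1a4 lies beside Slco1a1, Slco1a5 and Slco1a6, close copies with which reads may be shared. Slco2b1, a carrier of steroid sulfates, stood at 330, 895 and 644 CPM in the same zones and at 135 CPM in fibroblast-like cells, where plate Pdgfra1 gave 151 and Pdgfra2 3.4 CPM. Slco3a1, a relative that also carries prostaglandins, was low in endothelium. It stood at 370 CPM in pericyte-like, 260 in fibroblast-like, 89.5 in oligodendrocyte-like and 67.5 in smooth muscle-like cells, and at 0.71 CPM in endothelial-like cells.

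Slc22a8, the organic anion carrier OAT3, was shared by endothelium and pericytes. It stood at 1616 CPM in capillary-like (1611 to 1621), 1512 in pericyte-like (1508 to 1516), 1454 in venous-like and 386 in arterial-like cells. On Mural3 to Mural6 its pericyte-like level was 1447, 1591, 1585 and 1429 CPM, while smooth muscle-like cells of these plates had 1.02, 12.9, 19.4 and 0.884 CPM. No smooth muscle-like plate came near the pericyte-like ones. The endothelial-like over pericyte-like log2 ratio of Slc22a8 was -0.16, and endothelial-like plates (1181 to 1675 CPM) overlapped the pericyte-like ones. Slc22a8 stood at 245 CPM in fibroblast-like cells and had 28 reads, 0.324 CPM, in oligodendrocyte-like cells. Its neighbour on chromosome 19, Slc22a6, stood at 105 CPM in fibroblast-like cells, and at 0.053 CPM in pericyte-like cells. Both lie in a run of 6 Slc22 members between positions 7673061 and 8628299 of mm10, the first 4 of which stayed below 1 CPM.

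Other carriers for organic cations and small acids mostly had their highest level in fibroblast-like or oligodendrocyte-like cells, while Slc5a5 was highest in pericyte-like cells. For Slc22a5 and Slc15a2 the highest class lay less than 2-fold above the next. Slc22a5, which takes up carnitine, stood at 94.7 CPM in fibroblast-like cells and between 21.3 and 65.5 CPM in the remaining classes. Slc47a1, which extrudes organic cations, stood at 36.1 CPM in fibroblast-like cells and at 0.072 CPM in pericyte-like cells. Slc13a3, a dicarboxylate carrier, stood at 70.0 CPM in fibroblast-like and 31.2 CPM in pericyte-like cells. Slc13a4 stood at 119 CPM in fibroblast-like cells and had 88 reads, 0.243 CPM, in pericyte-like cells. Slc15a2, a di- and tripeptide carrier, stood at 85.0 CPM in fibroblast-like and 51.2 CPM in pericyte-like cells. Slc22a17, known as a receptor for lipocalin, stood at 354 CPM in oligodendrocyte-like cells, 142 in fibroblast-like cells and between 21.1 and 33.7 CPM in the others. Slc5a5, the sodium-iodide symporter of the thyroid, stood at 142 CPM in pericyte-like cells (131, 182, 126 and 132 on Mural3 to Mural6), was read in 38.4% of them (35.5 to 41.4), and had 20 reads in all endothelial-like cells.

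Among the vitamin carriers Slc19a3 and Slc52a3 were mainly read in endothelium and Slc19a1 in pericyte-like cells, while others were read in most classes. Slc19a3, a thiamine carrier, stood at 189, 383 and 439 CPM in arterial-like, capillary-like and venous-like cells and at 2.66 CPM in pericyte-like cells. Slc52a3, a riboflavin carrier, stood at 216, 215 and 393 CPM in the same zones, and at 1.47 CPM in pericyte-like cells. It had 0 reads in smooth muscle-like, fibroblast-like and oligodendrocyte-like cells. The endothelial-like level of Slc52a3 (258 CPM) was 5002-fold above a floor of 3 reads over the fibroblast-like class. This floor covers the counting of pooled reads only, not the spread between cells or plates. Slc52a2, a second riboflavin carrier, stood at 60.4, 139 and 136 CPM in the zones and between 16.5 and 28.4 CPM elsewhere. Slc19a1 was the opposite case. It stood at 1779, 1766, 1884 and 1827 CPM in pericyte-like cells on Mural3 to Mural6, at 619, 461, 778 and 566 CPM in smooth muscle-like cells, and at 85.2 CPM in fibroblast-like cells. Pericyte-like values lay above smooth muscle-like values on each plate, and arterial-like cells had 16 reads, 0.204 CPM.

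Slc19a1 was read in 97.7% of pericyte-like cells (96.6 to 98.5) and 4.03% of endothelial-like cells (96.5% and 2.58% after thinning). Slc46a1, the proton-coupled folate carrier, stood at 20.1 CPM in fibroblast-like and 16.6 CPM in pericyte-like cells, while its relative Slc46a3, a lysosomal carrier, stood at 115, 138 and 154 CPM in the endothelial zones. Slc19a2, the other thiamine carrier, stayed at 18.3 CPM or less. Slc5a6, the carrier of biotin and pantothenate, stood between 19.8 and 34.0 CPM in endothelium, pericyte-like and fibroblast-like cells and at 1.72 CPM in smooth muscle-like cells; its exons overlap Atraid on the opposite strand. Slc23a2, which takes up ascorbate, varied little, from 108 CPM in smooth muscle-like to 183 CPM in fibroblast-like cells.

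Slc29a1, the equilibrative carrier ENT1, reached the highest level per kilobase of exon among the nucleoside carriers, 133 CPM per kilobase in fibroblast-like cells. It stood at 534 CPM in fibroblast-like cells (528 to 540), 193 in pericyte-like, 126 in smooth muscle-like, 55.2 in venous-like, 42.4 in capillary-like and 7.76 in arterial-like cells, and had 9 reads in oligodendrocyte-like cells. The fibroblast-like plates differed, at 577 and 173 CPM on Pdgfra1 and Pdgfra2, and the second lay within the pericyte-like range of 149 to 278 CPM. Its relatives had other patterns: Slc29a2 was highest in smooth muscle-like cells (10.3 CPM) and Slc29a4 in capillary-like cells (11.0 CPM). Slc29a3, the lysosomal relative, stood at 63.7 CPM in oligodendrocyte-like and 27.2 CPM in fibroblast-like cells. The concentrative carriers Slc28a1, Slc28a2 and Slc28a3 stayed under 5 CPM in each class. Exons of Slc29a1 overlap an antisense gene, Gm17080.

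**Figure D2:**
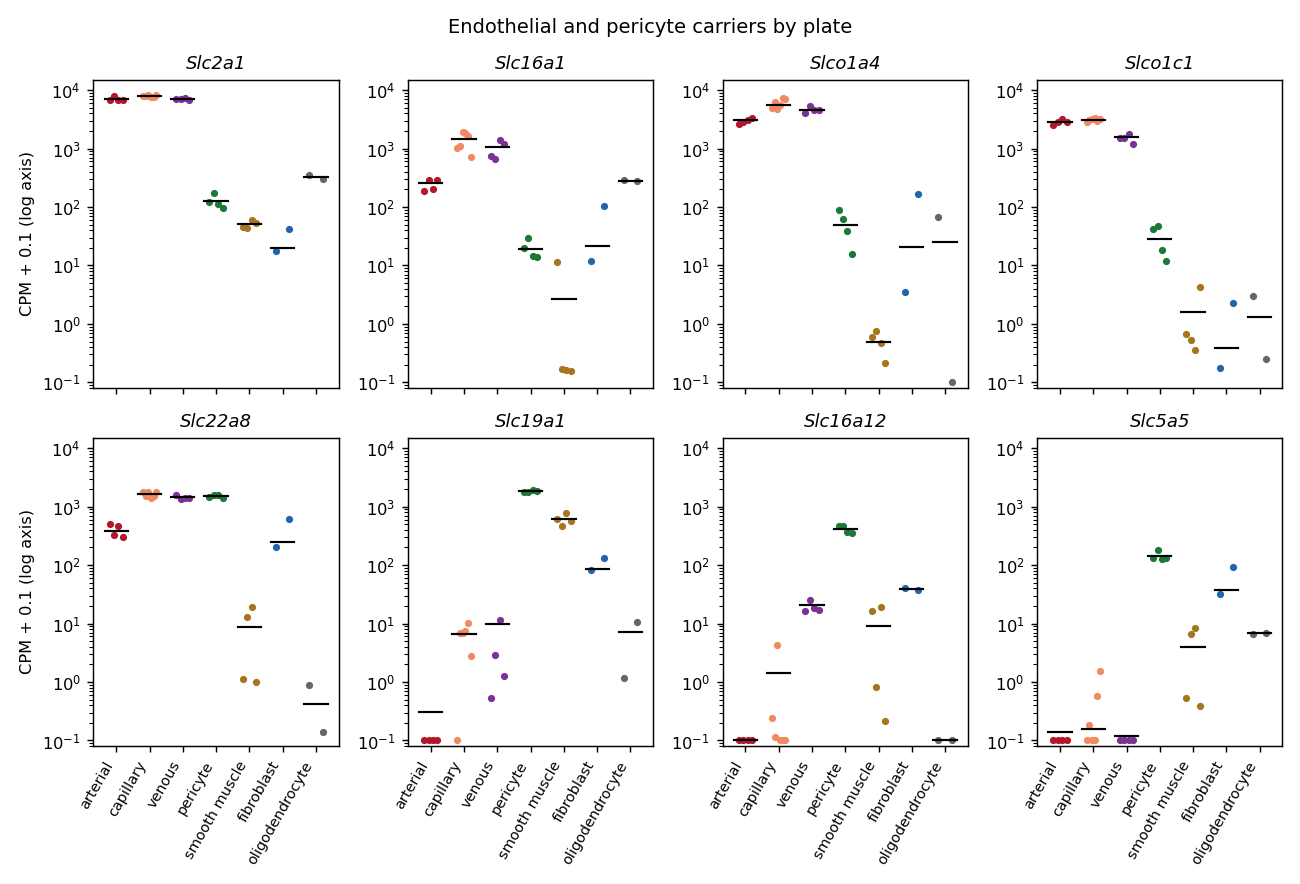
Level of 8 carriers as CPM + 0.1 on a log axis in the 7 cell classes, with 1 point for each plate holding at least 10 cells of the class and a bar for the pooled value. Slc2a1, Slco1a4 and Slco1c1 lie highest in the 3 endothelial zones, Slc22a8 lies at 1616 CPM among capillary-like and at 1512 CPM among pericyte-like cells, while Slc19a1, Slc16a12 and Slc5a5 are highest in pericyte-like cells.

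Set against pericyte-like cells, endothelium had more RNA for the lactate carrier Slc16a1 and the riboflavin carriers Slc52a2 and Slc52a3, and less for the folate carriers Slc19a1 and Slc46a1, the creatine carrier Slc16a12 and the iodide carrier Slc5a5. Other groups went both ways. Of the glucose carriers Slc2a1 was higher and Slc2a3 and Slc2a4 lower, and of the thiamine carriers Slc19a3 was higher and Slc19a2 lower. The call of Slc19a2 ended in several alternatives, given below. Of the organic anion carriers Slco1a4, Slco1c1 and Slco2b1 were higher, Slco3a1 was lower, and Slc22a8 was not called. A gene was counted as higher or lower when the pooled levels differed at least 2-fold (log2 ratio of CPM + 1) and no plate of the first class overlapped a plate of the second, among genes of at least 5 CPM in either class. By this rule 11 of 45 members were higher, or 24.4%, against 7.92% of the 10957 genes so counted. They included Slco2b1 (log2 ratio 6.74), Slc52a3 (6.71), Slc19a3 (6.63), Slco1a4 (6.58), Slco1c1 (6.50), Slc16a4 (6.07), Slc2a1 (5.91), Slc16a1 (5.83), Slc46a3 (3.69) and Slc52a2 (2.10). Lower were 10 members, or 22.2%, against 13% of all genes: Slc19a1 (-7.97), Slco3a1 (-7.76), Slc5a5 (-7.10), Slc16a12 (-5.92), Slc2a4 (-5.54), Slc2a3 (-3.16), Slc46a1 (-2.54), Slc2a10 (-2.48), Slc29a1 (-2.26) and Slc19a2 (-1.15). The median log2 ratio of the counted members was -0.15, beside -0.10 over all genes, so the carriers differed in both directions. These classes came from different reporter lines. Within the Pdgfrb/NG2 line, 43 endothelial-like cells lay on Mural3, Mural4 and Mural5. The comparison within this line gave the same call for 11 of the 11 higher members and 9 of the 10 lower. Over all genes 95.0% and 95.1% of the calls held there. The exception was Slc46a1, which was lower on each of these plates (log2 ratio -4.62 to -4.19). Its pooled ratio in the line was 0.58, so it was not called. Adding the unnamed endothelial cluster ended the calls of Slc52a2 and Slc46a1, and leaving out mixed wells that of Slc19a2. The call of Slc19a2 also ended with the mean of cells' CPM, the authors' scaled table, a minimum of 20 CPM or a pseudocount of 5 CPM. It ended as well at resolution 2 and without plate EC6 or Mural3.

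Genes that work with these carriers were counted by the same rule from a list of 61 measured genes. Between endothelial-like and pericyte-like cells 6 of 47 were higher and 8 lower. Higher were Bsg (14108 against 539 CPM), the chaperone that brings MCT1 to the membrane, the carnitine palmitoyltransferases Cpt1a and Cpt2, and the efflux pumps Abcb1a, Abcg2 and Abcc4. Lower were Ldhb, Adk, Btd, Cpt1c, Ckb, Abcc1 and the creatine synthesis enzymes Gatm and Gamt. Emb, the other chaperone of monocarboxylate carriers, stood at 1.11 CPM in endothelial-like and 290 CPM in fibroblast-like cells.

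Along the vessel, arterial-like cells had less RNA than capillary-like cells for the lactate carrier Slc16a1, the organic anion carriers Slc22a8 and Slco2b1, the thiamine carrier Slc19a3 and the riboflavin carrier Slc52a2. The other riboflavin carrier Slc52a3, the glucose carrier Slc2a1 and the organic anion carriers Slco1a4 and Slco1c1 differed by less than 2-fold. Here a gene was counted when the pooled levels differed at least 2-fold and in the same direction on each shared plate. Of 40 members 8 were lower in arterial-like cells, or 20%, against 3.98% of all genes: Slc16a1 (log2 ratio -2.51), Slc29a1 (-2.31), Slc16a9 (-2.14), Slc22a8 (-2.06), Slc22a15 (-1.91), Slco2b1 (-1.44), Slc52a2 (-1.19) and Slc19a3 (-1.01). Higher were 2 members, or 5%, against 4.04% of all genes, Slc16a11 (20.5 against 5.64 CPM) and Slc22a21, a carnitine carrier (15.3 against 5.81 CPM). The share of higher members was thus near that of all genes, and the median log2 ratio of the members was -0.10, beside 0.02. Slc2a1 (-0.17), Slco1c1 (-0.11) and Slc52a3 (0.01) differed little between these zones, and Slco1a4 (-0.85) and Slc16a4 (-0.88) were lower by less than 2-fold. Without plate EC5, EC6 or Mural3 the call of Slc19a3 ended, and without EC4 that of Slc22a21. At resolution 0.5, which gave no venous-like cluster, the calls of Slc19a3, Slco2b1, Slc52a2 and Slc22a21 ended. At resolution 2 those of Slc19a3 and Slc22a15 ended, and with a pseudocount of 5 CPM those of Slc19a3 and Slc22a21. Among the partner genes 3 of 46 were higher and 5 lower, the lower ones including Bsg (7371 against 14863 CPM).

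Venous-like and capillary-like cells differed by this rule in few carriers. Higher in venous-like cells were 2 of 37 members, or 5.41%, against 2.49% of all genes: Slc16a12 (log2 ratio 3.22) and Slco2a1, a prostaglandin carrier (13.8 against 1.94 CPM). Lower were also 2, or 5.41%, against 2.9% of all genes, the ketone body carrier Slc16a6 (-1.95) and the organic anion carrier Slco1b2 (-1.07), both of less than 10 CPM. Slco1c1 had a log2 ratio of -0.999, just short of the 2-fold limit, and was lower on each of the 4 plates. It passed the limit with the mean of cells' CPM, the authors' scaled table, no mixed wells, or plate EC3, EC5, Mural3 or Mural4 left out. Without plate EC3 or EC4 and at resolution 2 the call of Slco1b2 ended. Leaving out EC4 left 1 lower member. The calls of Slco1b2 and Slco2a1 ended with the mean of cells' CPM and with the authors' scaled table. With a pseudocount of 5 CPM those of Slco1b2 and Slc16a6 ended. A minimum of 20 CPM ended those of Slco2a1, Slco1b2 and Slc16a6. Slc52a3 (0.87) was higher on each plate, also by less than 2-fold. Against venous-like cells, 10 of 40 members were lower in arterial-like cells, or 25%, beside 5.02% of all genes, led by Slc16a12 (-4.44), Slc19a1 (-3.15), Slc29a1 (-2.68) and Slc16a1 (-2.08). Slc16a12 stood in venous-like cells 542-fold above a floor of 3 reads over the arterial-like class, which covers the counting of pooled reads only. Higher in arterial-like than venous-like cells were 3, or 7.5%, beside 5.31%: Slc2a10 (2.37), Slc16a11 (1.94) and Slc22a21 (1.51).

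**Figure D3:**
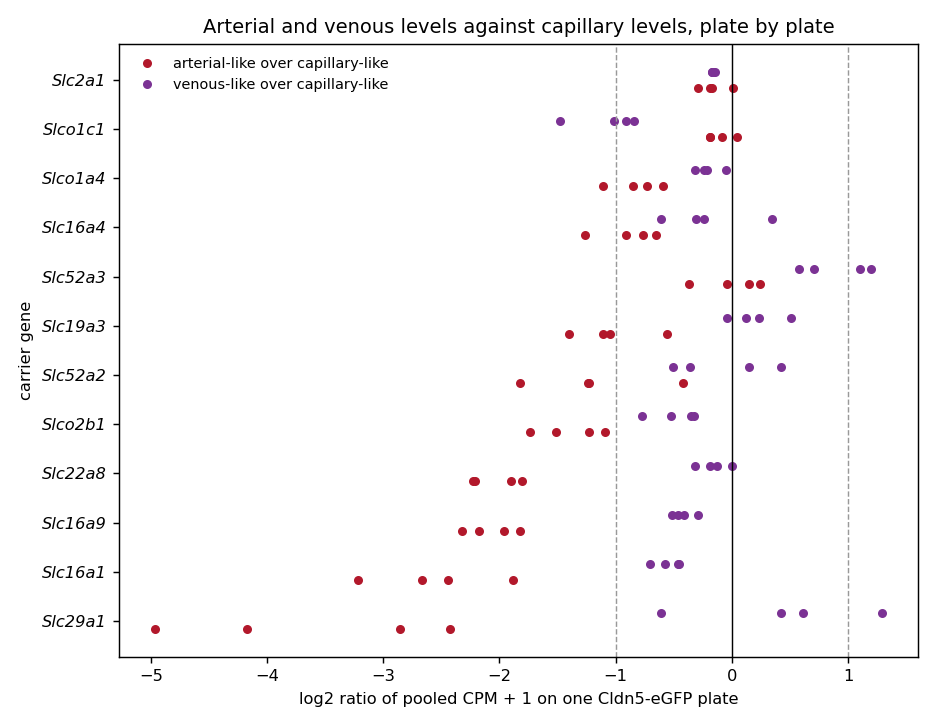
Log2 ratio of CPM + 1 of selected carriers (rows), arterial-like over capillary-like in red and venous-like over capillary-like in purple, with 1 point for each of the 4 Cldn5-eGFP plates; the solid line marks equal levels and dashed lines a 2-fold difference. All red points of Slc16a1, Slc16a9, Slc22a8 and Slc29a1 lie beyond 2-fold to the left, and the purple points of Slco1c1 lie between -0.8 and -1.5.

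Within capillary-like cells Slc16a1 marked a further difference. The 414 cells of cluster 2, led by Meox1 and Ivns1abp, had 2059 CPM of Slc16a1, and the 300 cells of cluster 3 had 596 CPM. The leading genes of cluster 3 included Rsad2, Cmpk2, Ifit2 and Oasl1, which interferon induces, and the capillary marker Mfsd2a. Slc16a9 stood at 152 against 67.5 CPM and Slc22a8 at 1966 against 1142 CPM. Of 36 members 6 differed at least 2-fold in pooled level and in the same direction on each plate, as did 505 of 10069 genes. Summed arterial markers stood at 173 CPM in cluster 2 (114 to 212 over the plates) and 1028 CPM in cluster 3 (907 to 1303), and summed venous markers at 569 and 344 CPM. Slc16a1, Slc16a9 and Slc22a8 were also lower in arterial-like than capillary-like cells; the part of the arterial shift in these differences was not tested. The pericyte-like clusters 7 (482 cells) and 8 (611 cells) differed by this rule in 1 of 38 members, Slc2a4 (19.5 against 72.6 CPM), and in 428 of 10448 genes.

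Of 40 members counted, 18 were lower in smooth muscle-like than in pericyte-like cells, or 45%, against 16.3% of all genes. The largest differences were those of Slc22a8 (log2 ratio -7.31), Slc16a12 (-5.38), Slco1a4 (-5.17), Slc13a3 (-4.99), Slc5a5 (-4.89), Slc16a9 (-4.62) and Slc5a6 (-3.69). Slco1c1, Slco2b1 and Slc16a1 were called lower too (-3.58, -2.71 and -2.48), and so was Slc2a1 (-1.27). In pericyte-like cells Slco1a4, Slco1c1, Slc16a1 and Slc2a1 stood at 1.02% to 1.68% of their endothelial-like level, beside the median of 1.57% for endothelial markers there and 0.0598% in smooth muscle-like cells; their part in the result was not tested. Without the mixed wells, in which summed markers of another class passed a limit, the calls of Slc16a1, Slc2a1, Slco1c1, Slco2b1, Slc46a3 and Slc29a3 ended and 17 of the 23 calls were kept. The median log2 ratio of the members was -1.05, beside -0.15 for all genes. Higher in smooth muscle-like cells were 5 members, or 12.5%, against 9.74% of all genes, among them Slc16a7 (6.00), Slc16a11 (2.90), Slc5a3 (2.499) and Slc2a4 (2.12), so the share of higher members was near that of all genes. Slc2a4, Slc16a11 and Slc16a13 are neighbours on chromosome 11, between 69942539 and 70221064. The first and second were highest in smooth muscle-like cells. Among the 7 classes Slc16a13 was highest in the endothelial zones, at 47.6 CPM in capillary-like and 3.03 CPM in smooth muscle-like cells. It was not called higher in endothelial-like than pericyte-like cells by the rule on plates, except without plate Mural4.

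Fibroblast-like cells held the highest level of 21 of the 62 members of at least 5 CPM, among them the sulfate carrier Slc13a4, the organic anion carrier Slc22a6 and the organic cation carrier Slc47a1. Of these 21, 10 were at least 2-fold above the next class. The share of all genes with their highest level in these cells is not given here, so the count is a description only. Against pericyte-like cells 16 of 51 members were higher, or 31.4%, beside 12.7% of all genes. They included Slc22a6 (log2 ratio 6.66), Slc13a4 (6.59), Slc47a1 (5.11), Slc22a18 (3.82), Slc2a13 (3.43), Slc22a2 (3.41), Slc22a4 (3.26), Slc22a21 (2.43), Slc22a17 (2.33) and Slc16a11 (1.48). Lower were 12, or 23.5%, beside 12.1%: the largest were Slco1c1 (-4.52), Slc19a1 (-4.40), Slc2a3 (-4.14), Slc16a12 (-3.36), Slc22a8 (-2.62) and Slc2a1 (-2.56). Against endothelial-like cells 18 of 54 members were higher, or 33.3%, beside 14.1%, led by Slco3a1 (7.26), Slc13a4 (6.82), Slc22a6 (6.65), Slc13a3 (5.79) and Slc5a5 (5.20). Lower were 13, or 24.1%, beside 7.25%, led by Slco1c1 (-11.02), Slc19a3 (-8.48), Slc2a1 (-8.47) and Slc52a3 (-8.02). The median log2 ratio of the members was 0.66 over pericyte-like and 0.99 over endothelial-like cells, beside -0.08 and 0.03 for all genes.

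The 2 fibroblast-like plates differed in several of these genes. Slc13a4 stood at 72.8 CPM on Pdgfra1 (59 cells) and 533 CPM on Pdgfra2 (28 cells), Slc22a6 at 68.5 and 436 CPM, and Slc13a3 at 41.9 and 322 CPM. Slc47a1 went the other way, at 38.7 and 15.1 CPM. Slc13a4 was read in 30.7% of fibroblast-like cells (21.3 to 41.4), Slc22a6 in 25.0% (16.4 to 35.4) and Slc47a1 in 10.2% (4.78 to 18.5), so that most of these cells gave no read. Without Pdgfra1 the number of higher members rose to 30 over pericyte-like and 34 over endothelial-like cells. Only plate Pdgfra2 was then left for the fibroblast-like class, so the rule on plates was easier to meet. The share over all genes is not given for this setting. Pericyte carriers stood in fibroblast-like cells at 4.69% of the pericyte-like level for Slc19a1, 9.53% for Slc16a12 and 16.2% for Slc22a8, beside the median of 8.63% for pericyte markers there; their part in the result was not tested. Without mixed wells 18 of the 28 calls against pericyte-like cells were kept, and those of Slc2a13, Slc13a3, Slc5a3, Slc22a5 and Slco1c1 were among the ones that ended. Among the partner genes 14 of 55 were higher than in pericyte-like cells and 7 lower, the higher ones including Emb, the thyroid hormone deiodinase Dio2, and the prostaglandin genes Ptgs1, Ptgs2 and Hpgd.

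**Figure D4:**
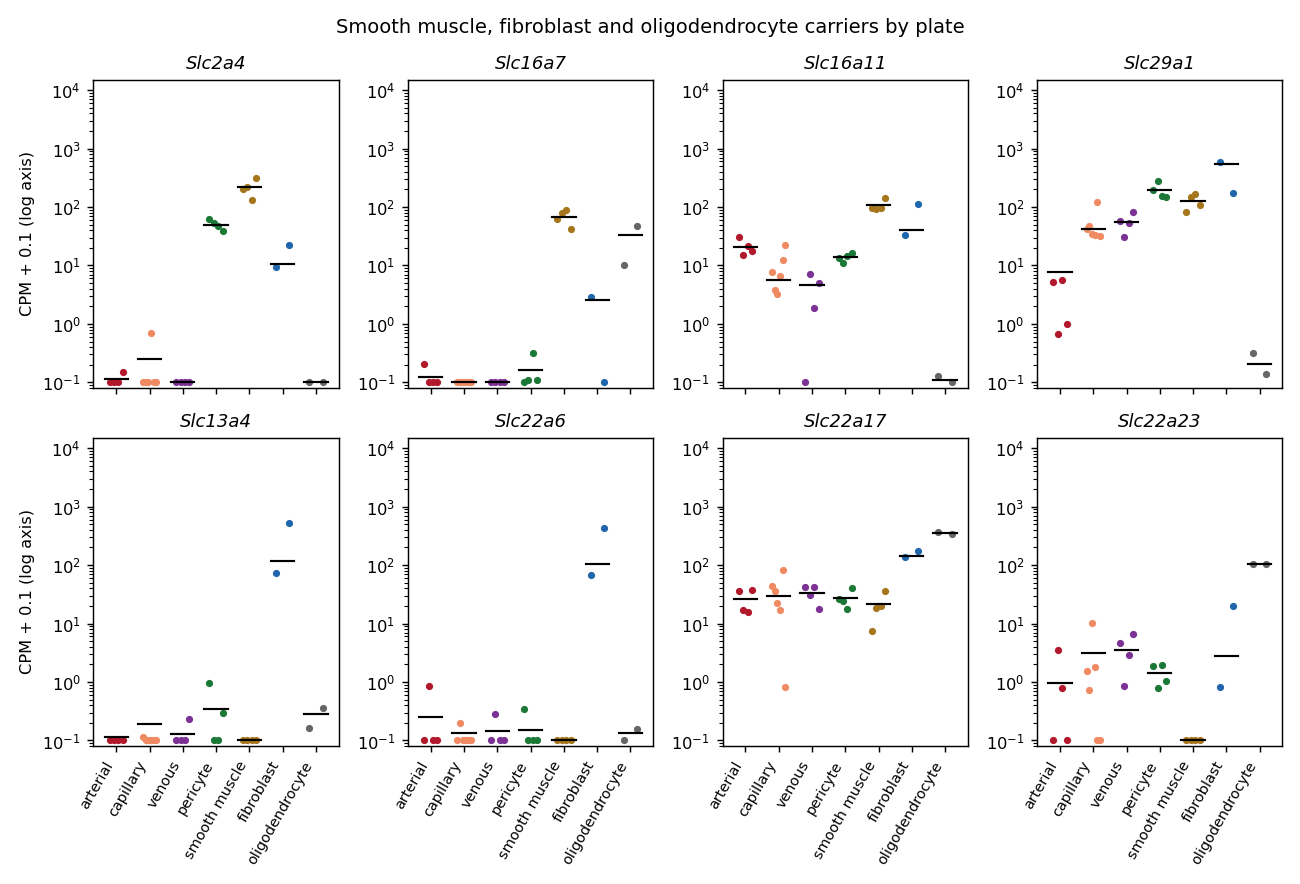
Level of 8 carriers as CPM + 0.1 on a log axis in the 7 cell classes, with 1 point for each plate holding at least 10 cells of the class and a bar for the pooled value. Slc2a4, Slc16a7 and Slc16a11 are highest in smooth muscle-like cells, Slc29a1, Slc13a4 and Slc22a6 in fibroblast-like cells with a spread between their 2 plates, and Slc22a17 and Slc22a23 in oligodendrocyte-like cells.

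Oligodendrocyte-like cells, from the same plates as the fibroblast-like cells, had few carriers at high levels. Of 51 members 26 were lower than in fibroblast-like cells, or 51.0%, against 29% of all genes, with a median log2 ratio of -2.63 beside -0.39, led by Slc29a1 (log2 ratio -8.92), Slc22a8 (-7.54), Slc22a6 (-6.68) and Slc13a4 (-6.66). Higher were 9, or 17.6%, against 15.5% of all genes, a share near that of all genes: Slc22a23 (4.80), Slc2a1 (3.92), Slc16a1 (3.69), Slc15a4 (3.41), Slc16a7 (3.28), Slc13a5 (2.82), Slc22a17 (1.31), Slc29a3 (1.19) and Slc19a2 (1.05). The call of Slc19a2 ended with the mean of cells' CPM, the authors' scaled table, a minimum of 20 CPM or a pseudocount of 5 CPM. It ended as well at resolution 2, without mixed wells and without plate Pdgfra2. Slc13a5 stood at 6.89 CPM in oligodendrocyte-like cells, and its call ended with a minimum of 20 CPM and without plate Pdgfra1. Slc22a23, whose substrate is not established, stood at 103 and 102 CPM on Pdgfra1 and Pdgfra2 and was read in 56.7% of cells (48.3 to 64.7). Slc15a4, a lysosomal carrier of histidine and peptides, stood at 123 and 139 CPM, and Slc22a17 at 372 and 344 CPM, on the same plates. For these 3 genes the plates gave like values. Of the partner genes 9 of 55 were higher than in fibroblast-like cells and 30 lower, the lower ones including Bsg, Emb, Hk1 and Hk2.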

How the data were processed

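Single-cell counts and the members' families were taken from the deposited tables. The deposited count table holds whole reads per gene and cell, without molecular tags, and the authors' scaled table, a score rounded to whole numbers, sums to between 499421 and 501418 per cell. STAR 2.4.2a and mm10 are named per the submitters' processing notes; the step from alignments to gene counts, with its strand setting and annotation, is not given in the sources used here. All columns matched a sample, and 0 cells repeated another cell's counts. The members, lists, markers and rules were chosen with earlier results of these data known.

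Cells were clustered with scanpy 1.11.5 (Leiden, resolution 1, seed 1, 2000 variable genes, 30 principal components, 15 neighbours) without 500 genes: all solute carriers, Abc pumps, partner genes, reporter genes and sex-linked genes. Class names were given where over 50% of a class's markers stood at 50% or more of their level in whichever cluster was highest. At least 3 of these markers had to lie above 20 CPM. A name was withheld if 2 or more among a cluster's 10 leading genes were markers of another cell type. Globin genes and Alas2 thus left the endothelial cluster they led unnamed. That cluster had 12 of 12 endothelial and 6 of 10 capillary markers high, as did 1 of the capillary-like clusters, cluster 3. Doublets were not called; wells with summed markers of another class at 10% of that class's median or above (1176 of 3186, with 653 of 1093 pericyte-like and 50 of 88 fibroblast-like cells) were kept, and left out as an alternative. Some markers are read in several classes, so these are not rates of doublets.

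Counts were pooled per class and per plate of at least 10 cells, scaled to CPM, and compared as log2 ratios with a pseudocount of 1 CPM. Genes of at least 5 CPM in either class were counted. Named genes were a list of barrier carriers and, per comparison and direction, up to 12 called members of at least 10 CPM; lower ones are named where a count of 5 or fewer holds them, and a few others were named after their values were seen. The values of some members are not reported here; counts include them. Shares of cells were also computed after thinning cells to 100000 reads (3185 cells kept). Exon lengths and positions came from the GENCODE annotation of mm10. Alternatives were other scalings, pseudocounts, minimum levels, cluster resolutions and leaving out each plate. The comparison was tested on simulated counts. Python 3.11.15, numpy 2.4.6, pandas 2.3.3 and scipy 1.17.1 were used.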

Additional observations from a re-analysis of the deposited data

Results flagged for a closer look

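Some carriers had levels in cells outside the comparisons that lay above those of all 7 classes. In the 22 microglia-like cells, immune cells of the brain, Slc2a5, a fructose carrier, stood at 248 CPM (exact interval 238 to 257) and was read in 31.8% of cells, while it stayed below 1 CPM in each of the 7 classes. In the same cells Slc29a3, a lysosomal nucleoside carrier, stood at 151 CPM (144 to 159, read in 40.9% of cells) and Slc15a3, a lysosomal peptide carrier, at 127 CPM (121 to 134, 50% of cells). Slc46a1, the proton-coupled folate carrier, stood at 113 CPM (107 to 120, 36.4% of cells) and Slc16a6, a ketone body carrier, at 41.3 CPM (37.5 to 45.4, 36.4% of cells). In the 17 oligodendrocyte progenitor-like cells Slc2a8, an intracellular hexose carrier, stood at 112 CPM (105 to 119, 23.5% of cells). All 6 perivascular macrophage markers were high in the microglia-like cells, with a sum of 2613 CPM beside 30124 CPM of microglia markers, and the pericyte markers summed to 8573 CPM; their part in these levels was not tested. No plate held 10 cells of either class, so these values have no plate range.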

How the results depend on the processing

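No p-value was computed, and the depth, a median of 350339 reads per cell, limits statements on the share of cells with a read. No paired analysis was possible because the labels give no replicates to pair in a test; classes that share plates were set against each other plate by plate. Of 268 alternatives for the counts of called members, 256 stayed within 1.5 times and 12 did not. Members higher in arterial-like than capillary-like cells fell from 2 to 1 with a minimum of 20 CPM and with a pseudocount of 5 CPM, and those higher than in venous-like cells from 3 to 1 with a minimum of 20 CPM. Members higher in venous-like than capillary-like cells fell from 2 to 1 with the mean of cells' CPM, the authors' scaled table and a minimum of 20 CPM; those lower fell from 2 to 0 with a minimum of 20 CPM and a pseudocount of 5 CPM, and to 1 at resolution 2 and without plate EC4. Resolution 0.5 gave no venous-like cluster and thus no value for its comparisons.

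Leaving out each plate gave 15 to 30 members higher in fibroblast-like than pericyte-like cells (10 to 16 lower), 18 to 34 higher than in endothelial-like cells (12 to 14 lower), 11 to 12 higher and 9 to 12 lower in endothelial-like than pericyte-like, 6 to 7 and 17 to 20 in smooth muscle-like than pericyte-like, 2 to 3 and 8 to 11 in arterial-like than capillary-like, 2 to 3 and 1 to 3 in venous-like than capillary-like, 3 to 4 and 10 to 12 in arterial-like than venous-like, and 11 to 13 and 30 to 37 in oligodendrocyte-like than fibroblast-like cells. Leaving out a Pdgfra plate left the fibroblast-like class only the other Pdgfra plate, so the rule on plates was easier to meet.

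Among 3903 alternatives for single genes 2 reversed, both without mixed wells: Slc16a4 in fibroblast-like over pericyte-like cells (log2 ratio 0.59, from -1.02) and Slco2b1 in smooth muscle-like over pericyte-like cells (0.018, from -2.71). The cause was not tested. Without mixed wells 18 of 28 fibroblast calls over pericyte-like cells and 17 of 23 smooth muscle calls were kept; Slc16a1, Slc2a1, Slco1c1, Slco2b1, Slc46a3 and Slc29a3 were the smooth muscle calls lost, and Slc13a3, Slc2a13, Slc5a3 and Slc22a5 were among the fibroblast calls lost. Slco1c1 became called lower in venous-like than capillary-like cells.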

Other observations

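The 136 cells of the unnamed mural cluster held carriers of both mural classes. Slc19a1, the reduced folate carrier, stood there at 1618 CPM (1533 to 1730 over the plates), near its pericyte-like level of 1817 CPM, and Slc5a5, the iodide carrier, at 137 CPM beside 142 CPM. Slc22a8, the organic anion carrier, stood at 117 CPM (102 to 140), below its pericyte-like level of 1512 CPM and above its smooth muscle-like level of 8.52 CPM. Slc2a4, the insulin-responsive glucose carrier, stood at 197 CPM (124 to 253), beside 219 CPM in smooth muscle-like cells. Its pericyte-like level was 49.8 CPM. Slc2a10 stood at 83.5 CPM, above its level in both classes. The summed pericyte markers of these cells reached 27276 CPM, against 63460 in pericyte-like and 2180 in smooth muscle-like cells, and the summed smooth muscle markers 8909 CPM, against 837 and 53828.

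In the 276 cells of the unnamed endothelial cluster Slc2a1 stood at 5882 CPM (5761 to 6494 over the plates), Slco1a4 at 4497, Slco1c1 at 2247, Slc22a8 at 1485 and Slc16a1 at 1183 CPM. These cells had a median of 268742 reads, fewer than the 355327 of the endothelial-like cells.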
